A study of Homo sapiens with 12 samples.

Results

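The 10 genes SRSF1, SRSF2, SRSF3, SRSF4, SRSF5, SRSF6, SRSF7, SRSF11, TRA2A and TRA2B encode SR proteins and their close relatives. They were followed by symbol at the level of the gene, the exon and the exon junction. Each gene had 1 transcript cluster, which made 10 of the 67528 clusters in the gene-level table. A total of 364 probe sets of 913055 carried their symbols, 225 for exons (named PSR) and 139 for junctions (named JUC). The SRSF2 cluster and all 24 SRSF2 probe sets were annotated with the microRNA gene MIR636 as well. In the RefSeq table of GRCh38.p14, MIR636 spans 99 bases and lies inside SRSF2, which spans 3297. Which of the 24 lie over MIR636 is not given.

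HEK293T, the line used throughout, derives from human embryonic kidney and expresses the large T antigen of SV40. Both groups were made with lentivirus and puromycin selection. The PPIL3 knockdown line carried a short hairpin against PPIL3, a cyclophilin of the spliceosome, and the SCR line carried a scrambled hairpin. There were 3 arrays of each, and the hairpin cannot be told apart from the line that carries it. Total RNA was hybridized to the Affymetrix Human Transcriptome Array 2.0, and all values are log2 RMA signals, with differences given as knockdown minus SCR.

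SR proteins bind exonic enhancers through RNA recognition motifs and recruit the splicing machinery through domains rich in arginine and serine. Most of these genes limit their own output. When their protein is abundant, a conserved exon with an early stop codon, called a poison exon, is spliced into the mRNA and sends it to nonsense-mediated decay. The annotation used here pairs probe sets with gene symbols and gives no positions, so no probe set was assigned to a poison exon, and probe sets are named by their numbers.

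The targeted gene was checked first. PPIL3 had gene-level signals of 7.30, 7.26 and 7.28 in the knockdown, against 7.75, 7.81 and 7.81 in SCR. The fall was -0.51 in log2 (SE 0.030, limma adjusted p = 0.0050), and the adjusted p was 0.053 without SCR array 2 and 0.080 without SCR array 3. The median gene-level signal of the 6 arrays lay between 6.57 and 6.62. All 8 HEK293T feature genes examined, among them PAX2 and LIN28B, had means of 7.28 to 10.9, and 1 of them, NEFM, was called. Their summed log2 signal was 71.5 to 72.2 in the knockdown and 70.6 to 70.7 in SCR. Marker genes of other cell types had means of 4.17 to 8.20 for fibroblasts and 4.48 to 7.67 for hepatocytes. For immune cells the range was 4.18 to 6.47, and for erythroid cells 5.64 to 6.71. The fibroblast and hepatocyte ranges reached into that of the HEK293T features, so these means alone do not identify the line.

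At gene level, the 10 genes stayed close to their SCR values. Here a gene was called when its limma adjusted p over all 19913 genes tested was under 0.05. None of the 10 was called, with a smallest adjusted p of 0.15, while 0.688% of all genes were (137 genes, and 32 with the replicate number as a block). TRA2B and SRSF2, 2 of the 10, had an unadjusted p under 0.05, against 15.5% of all genes. In the same 2 genes the 3 knockdown values lay outside the 3 SCR values, as they did in 20.3% of all genes. In bulk RNA, fewer cells with a transcript and less of it per cell cannot be told apart.

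TRA2B, a transformer 2 homologue that binds GAA-rich exonic enhancers, had the highest positive difference. Its signal was 9.64, 9.72 and 9.68 in the knockdown, against 9.55, 9.54 and 9.58 in SCR. All 3 knockdown arrays were above all 3 SCR arrays, with means of 9.68 ± 0.040 and 9.56 ± 0.022 (SD, n = 3 each). The difference was 0.12 (SE 0.032, 95% interval 0.045 to 0.20), or 8.76%, and its limma adjusted p was 0.15. Its paralogue TRA2A had 9.80, 9.95 and 9.94 in the knockdown, against 9.78, 9.88 and 9.87 in SCR. The TRA2A groups overlapped, with a difference of 0.052 (SE 0.050).

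SRSF2, which binds enhancers with both C-rich and G-rich motifs, lay at the other end. Its signal was 11.01, 10.94 and 10.86 in the knockdown, against 11.03, 11.06 and 11.07 in SCR. The groups did not overlap, but knockdown array 1 lay just below the lowest SCR array. The means were 10.94 ± 0.077 and 11.05 ± 0.025 (SD, n = 3 each), a difference of -0.12 (SE 0.044, 95% interval -0.22 to -0.011, limma adjusted p = 0.29).

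The other classical SR proteins differed by less. SRSF1, the founding member of the family, had 11.93, 11.90 and 11.90 in the knockdown, against 11.86, 11.90 and 11.97 in SCR. Its difference was 0.0016 (95% interval -0.083 to 0.086), and leaving out single arrays turned its sign. SRSF3, the smallest of the family, had 10.96, 11.04 and 10.99 in the knockdown, against 10.94, 10.97 and 10.97 in SCR, a difference of 0.037. SRSF7, which carries a zinc knuckle beside its RNA recognition motif, had 10.31, 10.40 and 10.30 in the knockdown, against 10.30, 10.29 and 10.30 in SCR. In SRSF7 a single knockdown array stood above the rest, and the mean difference was 0.040.

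SRSF4, SRSF5 and SRSF6 share a paired RNA recognition motif layout. SRSF4 had 9.72, 9.79 and 9.74 in the knockdown, against 9.72, 9.72 and 9.72 in SCR. SRSF6 had 10.53, 10.68 and 10.53 in the knockdown, against 10.65, 10.62 and 10.62 in SCR. In SRSF6 knockdown array 2 was the highest of the 6 and the other 2 knockdown arrays were the lowest. SRSF5 had 10.30, 10.19 and 10.35 in the knockdown, against 10.30, 10.34 and 10.36 in SCR. The differences were 0.033 for SRSF4, -0.054 for SRSF6 and -0.054 for SRSF5, with all groups overlapping. SRSF11, an SR-related protein, had 10.39, 10.46 and 10.39 in the knockdown, against 10.35, 10.39 and 10.41 in SCR, a difference of 0.032. Knockdown array 2 was the highest of the 6 in 7 of the 10 genes, and in 23.0% of all genes tested.

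**Figure D1:**
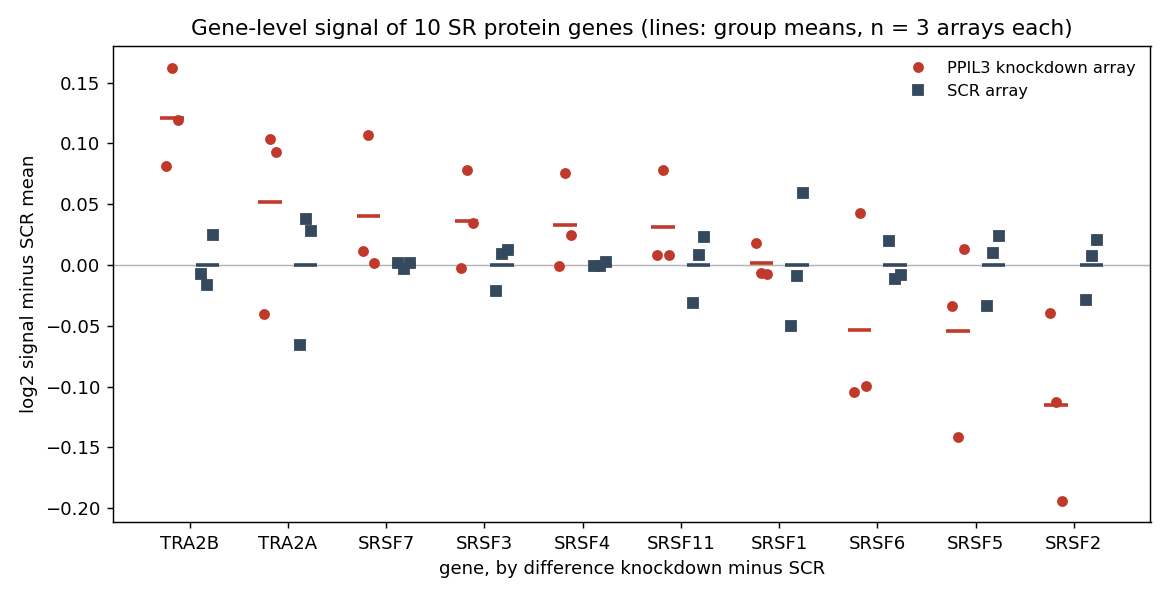
Gene-level log2 signal of each array minus the SCR mean of that gene, for the 10 genes in order of their difference. Circles are the 3 PPIL3 knockdown arrays and squares the 3 SCR arrays, with lines at the group means; the groups are apart in TRA2B, at 0.12 above, and in SRSF2, at -0.12.

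The exon probe sets of TRA2B had small positive differences, and none was called. Of the 364 probe sets, 346 had a mean of at least 5 and were tested, 221 for exons and 125 for junctions, and 18 were below it. In TRA2B, 32 of 32 exon probe sets had a positive difference, with a median of 0.17 and a range of 0.034 to 0.33, against 48.7% of exon probe sets over all genes. Leaving out single arrays left 30 to 32 positive. The 32 exon probe sets share a gene and are not independent of one another. Over the 10 genes together 149 of 221 exon probe sets had a positive difference. SRSF4 came next to TRA2B with 18 of 20, and SRSF2 had the lowest share, with 1 of 15. Of the 45 tested TRA2B probe sets, 12 were above SCR in every knockdown array, against 8.36% of all probe sets. None of the 45 was below, against 8.08%.

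PSR03036890.hg.1 was the TRA2B exon probe set with the smallest adjusted p. It had 10.35, 10.20 and 10.06 in the knockdown, against 9.98, 9.86 and 9.89 in SCR (difference 0.29, limma adjusted p = 0.43). Of the 13 TRA2B junction probe sets tested, 12 had a positive difference, with a median of 0.075, against 50.3% of junction probe sets over all genes.

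SRSF2 probe sets leaned the other way. Of its 24 tested probe sets, 21 had a negative difference, 17 to 20 with single arrays left out. A positive difference was found in 1 of 15 exon probe sets, against 48.7% over all genes. Among its junction probe sets 2 of 9 had one, against 50.3%. These probe sets too share a gene and are not independent. PSR17025876.hg.1 had 10.89, 10.66 and 10.58 in the knockdown, against 11.00, 11.21 and 11.22 in SCR, a difference of -0.43. Its neighbours by number, PSR17025874.hg.1 and PSR17025875.hg.1, differed by -0.30 and -0.24, and in all 3 knockdown array 1 was the nearest to SCR. The junction probe set JUC17014551.hg.1 went against the gene. It had 7.48, 7.33 and 8.08 in the knockdown, against 7.05, 7.28 and 6.93 in SCR, a difference of 0.54.

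No probe set of the 10 genes was called at this level. Among the 346, the smallest limma adjusted p was 0.28, in the SRSF11 junction JUC01006326.hg.1. Over all 571191 probe sets tested, 0.00473% were called. Counted by position alone, 43 of the 346 were higher in every knockdown array, against 8.36% of all probe sets, and 19 were lower, against 8.08%. The 43 included 12 of TRA2B, 10 of SRSF11 and 6 of SRSF7. The 19 included 6 of SRSF5, 5 of SRSF6 and 4 of SRSF2.

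**Figure D2:**
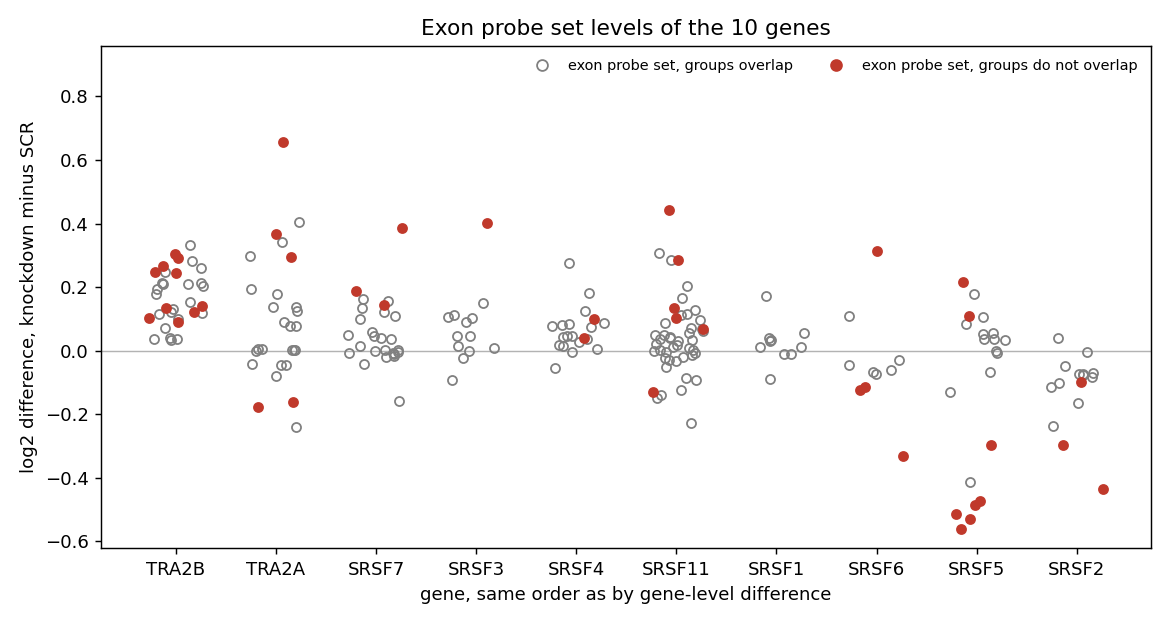
Difference in log2 signal, knockdown minus SCR, of each tested exon probe set (circles) of the 10 genes. Filled circles mark probe sets whose 3 knockdown and 3 SCR values do not overlap; all 32 TRA2B points lie above 0, and a group of SRSF5 points lies between -0.56 and -0.47.

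To set exons apart from the gene they belong to, a splicing index was computed. It is the log2 value of a probe set minus the mean of its gene's retained exon probe sets on the same array. By this index 0 of the 346 probe sets were called by limma, with a smallest adjusted p of 0.51, and among all 565684 tested the percentage called was 0%. An unadjusted p under 0.05 was found for 36 of the 346 (22 higher and 14 lower in the knockdown), or 10.4%, against 7.42% of all probe sets. The groups did not overlap in 64 (18.5%), against 13.4% of all. Of the 64, 32 were higher, where 6.97% of all probe sets were, and 32 lower, where 6.42% were.

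SRSF5 held much of this count. Its 35 tested probe sets included 14 at an unadjusted p under 0.05, or 40.0%, with 9 higher and 5 lower, and 20 whose groups did not overlap. SRSF11 had 8 of 73, TRA2A 5 of 42, SRSF6 3 of 18, SRSF7 3 of 43, SRSF2 2 of 24 and SRSF3 1 of 20. SRSF1, SRSF4 and TRA2B had 0 at that p. Groups that did not overlap were found in other genes too, against 13.4% of all probe sets. They numbered 7 of 18 in SRSF6, 5 of 20 in SRSF3, 7 of 45 in TRA2B (all lower) and 6 of 42 in TRA2A. There were 10 of 73 in SRSF11, 3 of 24 in SRSF2, 5 of 43 in SRSF7, 1 of 14 in SRSF1 and 0 of 32 in SRSF4. The median size of the SRSF5 index differences was 0.21, while it was 0.084 over all probe sets and 0.031 to 0.095 in each of the other 9 genes. Both SRSF5 counts fell when the index used the median of the exon probe sets in place of their mean. In that setting 7 of 35 were at an unadjusted p under 0.05 (7.63% of all probe sets). The groups did not overlap in 7 (12.8% of all), and the median size was not computed.

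**Figure D3:**
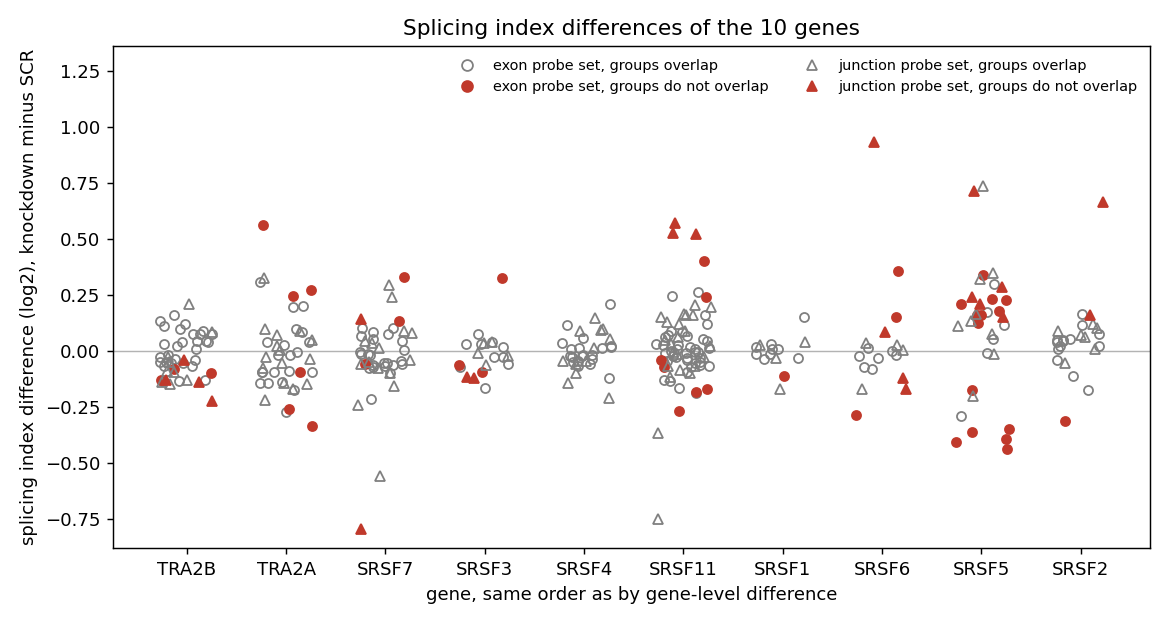
Difference in splicing index (log2), knockdown minus SCR, of the 346 tested probe sets, with circles for exons and triangles for junctions. Filled points mark groups that do not overlap. SRSF5 has 20 of them among 35, or 7 with the exon median in the index, and SRSF4 has 0 among 32.

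In SRSF5, exon probe sets with consecutive numbers were lower in the knockdown while most of the others were not. PSR14005072.hg.1 had 11.35, 10.92 and 10.86 in the knockdown, against 11.60, 11.63 and 11.58 in SCR. PSR14005074.hg.1 had 11.73, 11.25 and 11.27 in the knockdown, against 11.95, 11.97 and 11.93 in SCR. PSR14005071.hg.1 had 11.46, 10.92 and 10.98 in the knockdown, against 11.60, 11.69 and 11.62 in SCR. In each of these the 3 SCR arrays lay close together, knockdown array 1 was a little below them, and knockdown arrays 2 and 3 were well below.

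PSR14005073.hg.1, with 11.35, 10.86 and 10.89 in the knockdown against 11.49, 11.49 and 11.54 in SCR, did the same. PSR14005070.hg.1 had 7.70, 7.83 and 7.61 in the knockdown, against 7.98, 8.14 and 8.48 in SCR. Here all 3 knockdown arrays were low and the SCR arrays were spread. The differences of these 5, PSR14005070 to PSR14005074, ran from -0.56 to -0.47, at the median 1.43-fold lower. Their limma adjusted p ran from 0.31 to 0.38. They were picked out after their values were seen, and probe sets with neighbouring numbers may overlap on the transcript.

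Further SRSF5 probe sets were lower with less separation. PSR14005069.hg.1 had 9.26, 8.71 and 9.01 in the knockdown, against 9.19, 9.55 and 9.48 in SCR, a difference of -0.41 with overlapping groups. PSR14005065.hg.1 had 9.51, 9.24 and 9.46 in the knockdown, against 9.64, 9.68 and 9.77 in SCR, a difference of -0.30. The junction probe set JUC14002582.hg.1 had 8.76, 8.35 and 8.30 in the knockdown, against 8.86, 8.82 and 8.70 in SCR, a difference of -0.32. In this junction too, arrays 2 and 3 of the knockdown were low and array 1 was within the SCR range.

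Apart from the 5, 30 SRSF5 probe sets were tested, and their differences ran from -0.41 to 0.62 with a median of 0.041. Of the 30, 21 had a positive difference, a count taken after the 5 lower ones were set aside. PSR14005057.hg.1 had 8.19, 8.23 and 8.25 in the knockdown, against 7.98, 8.02 and 8.02 in SCR. It had the smallest splicing index p of any SRSF5 exon, with an index difference of 0.34 (SE 0.070, unadjusted p = 0.0019, limma adjusted p = 0.51). The junction probe set JUC14002597.hg.1 had 12.72, 12.72 and 12.82 in the knockdown, against 12.64, 12.59 and 12.54 in SCR, with an index difference of 0.28. PSR14005072.hg.1 had an index difference of -0.44 (SE 0.12, unadjusted p = 0.0083). Each index is set against the exon mean, and the 5 lower probe sets are 5 of the 21 in that mean, which differed by -0.12. Set against the median in place of the mean, 7 of 35 were at an unadjusted p under 0.05 (7.63% of all probe sets) and 7 had groups that did not overlap (12.8% of all). In that setting JUC14002597.hg.1 was at -0.015 and PSR14005057.hg.1 at 0.039. Without knockdown array 3, 6 were at an unadjusted p under 0.05 (6.63% of all probe sets), without SCR arrays 1, 2 and 3 there were 9, 9 and 7, and without knockdown array 1 there were 19 (10.4% of all probe sets).

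**Figure D4:**
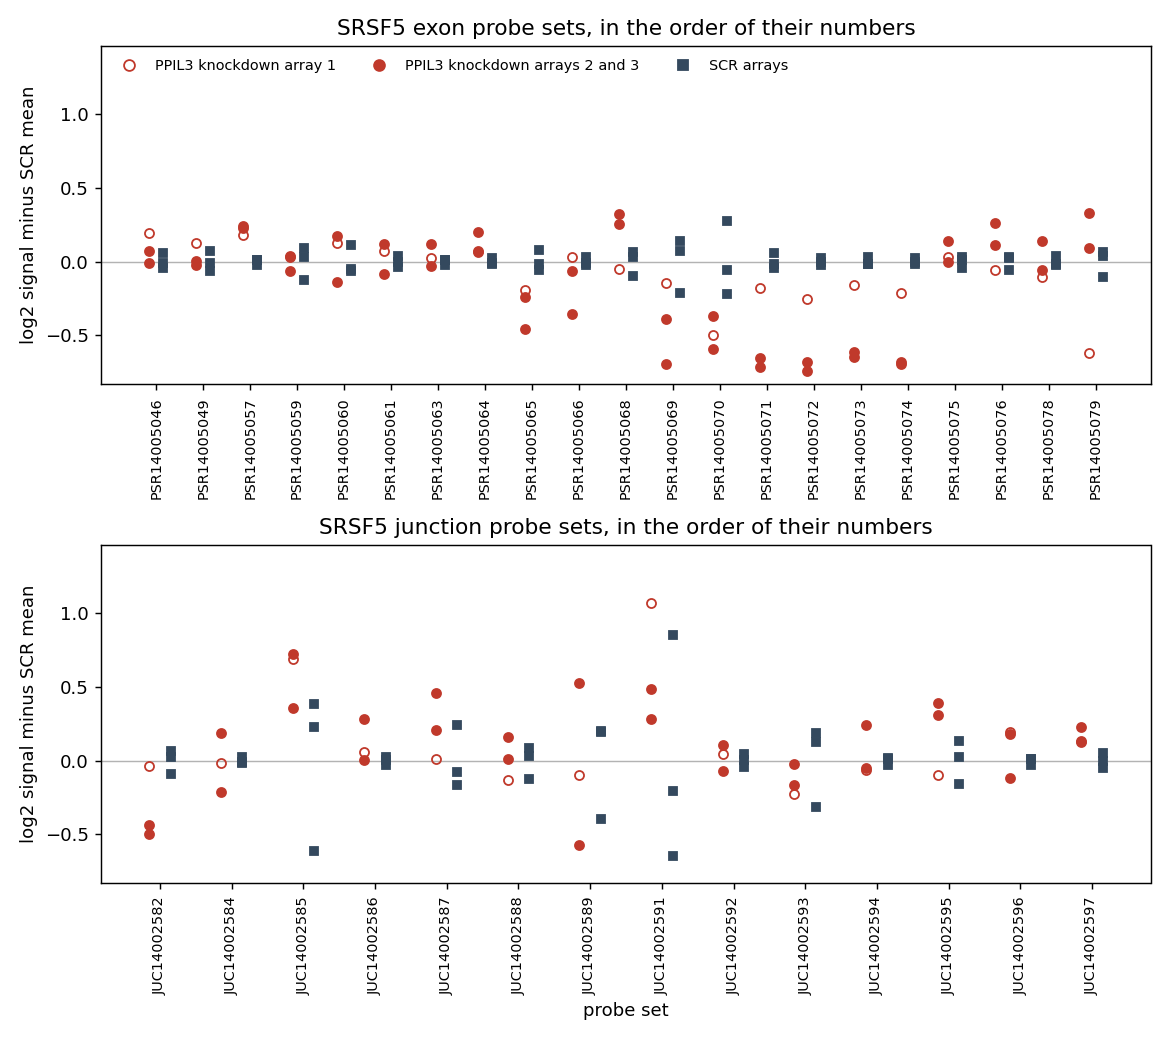
Log2 signal of each array minus the SCR mean, for the 21 tested SRSF5 exon probe sets (upper panel) and 14 junction probe sets (lower panel), in the order of their numbers. Open circles are knockdown array 1, filled circles knockdown arrays 2 and 3, and squares the SCR arrays; from PSR14005071 to PSR14005074 knockdown arrays 2 and 3 lie near -0.7 and array 1 near -0.2.

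SRSF6 had the largest splicing index difference of the 10 genes, at a junction. JUC20002493.hg.1 had 7.75, 8.13 and 7.85 in the knockdown, against 7.48, 6.78 and 6.78 in SCR. All 3 knockdown arrays were above SCR, of which array 1 was the nearest. The index difference was 0.93 (SE 0.19, unadjusted p = 0.0019, limma adjusted p = 0.51), and the probe set itself differed by 0.89. PSR20004414.hg.1, an SRSF6 exon probe set, had 6.97, 6.85 and 6.73 in the knockdown, against 6.48, 6.63 and 6.50 in SCR, with an index difference of 0.36. At the other end, PSR20004418.hg.1 had 10.56, 10.20 and 10.38 in the knockdown, against 10.67, 10.72 and 10.74 in SCR. Its index difference was -0.29, and the gene as a whole had 14 of 18 probe sets with a negative level difference.

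In SRSF7 the extremes were a junction and an exon. JUC02014815.hg.1 had 5.10, 5.96 and 5.64 in the knockdown, against 5.95, 6.67 and 6.31 in SCR. The level values overlapped slightly, but the index values did not, with a difference of -0.80 (SE 0.24, unadjusted p = 0.013). PSR02028289.hg.1 had 8.51, 8.95 and 8.68 in the knockdown, against 8.31, 8.26 and 8.40 in SCR, with an index difference of 0.33. Its knockdown values were all above SCR.

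SRSF11 had its 3 largest increases in the index at junctions. JUC01006326.hg.1 had 8.78, 9.07 and 8.84 in the knockdown, against 8.48, 8.15 and 8.36 in SCR, with an index difference of 0.52 (SE 0.12, unadjusted p = 0.0033). JUC01006317.hg.1 had 6.65, 6.31 and 6.31 in the knockdown, against 5.81, 6.06 and 5.56 in SCR, with an index difference of 0.57. JUC01006333.hg.1 had 5.66, 6.22 and 5.77 in the knockdown, against 5.30, 5.14 and 5.51 in SCR, with an index difference of 0.53. The groups did not overlap in any of the 3. The lowest SRSF11 index difference, -0.75 at JUC01006321.hg.1, rested on knockdown array 2. That probe set had 6.02, 3.98 and 5.34 in the knockdown, against 5.85, 6.03 and 5.58 in SCR, and its index difference was -0.16 without that array.

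TRA2A had exon probe sets with index differences of both signs, none of them called. PSR07018730.hg.1 had 7.40, 8.36 and 8.13 in the knockdown, against 7.28, 7.38 and 7.25 in SCR. Knockdown array 1 lay just above SCR and the other 2 well above it, with an index difference of 0.56 (SE 0.17). PSR07018750.hg.1 had 7.20, 7.40 and 7.29 in the knockdown, against 6.84, 6.92 and 7.03 in SCR, with an index difference of 0.27. PSR07018763.hg.1 had 7.53, 7.83 and 7.73 in the knockdown, against 7.79, 7.95 and 8.05 in SCR. The level values of the last overlapped, while its index values were apart, at -1.87, -1.85 and -1.94 in the knockdown against -1.59, -1.59 and -1.46 in SCR.

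The remaining genes had few probe sets at an unadjusted p under 0.05 in the index. In SRSF3 the 1 probe set at an unadjusted p under 0.05 was PSR06005785.hg.1, which had 8.81, 8.91 and 9.02 in the knockdown, against 8.30, 8.54 and 8.70 in SCR, with an index difference of 0.33. The lowest SRSF3 index difference was -0.17, at PSR06005777.hg.1. The SRSF3 junction JUC06002381.hg.1 was not tested, since its mean was 4.72. It had 4.43, 5.90 and 5.31 in the knockdown, against 4.17, 4.35 and 4.15 in SCR. Its difference was 0.99, with knockdown array 1 close to SCR. In SRSF1 the index differences ran from -0.17 at JUC17012828.hg.1 to 0.15 at PSR17023079.hg.1. In SRSF4 they ran from -0.21 at JUC01020132.hg.1 to 0.21 at PSR01037463.hg.1, and in TRA2B from -0.22 at JUC03018298.hg.1 to 0.21 at JUC03018296.hg.1. In SRSF2 the ends were -0.31 at PSR17025876.hg.1 and 0.67 at the junction JUC17014551.hg.1, and in SRSF5 the highest was 0.74 at JUC14002591.hg.1, whose groups overlapped. Several of these ends moved with single arrays left out. The index difference ran from -0.41 to -0.044 at JUC01020132.hg.1 (smallest without knockdown array 3), from 0.072 to 0.40 at JUC03018296.hg.1 (without knockdown array 2) and from 0.037 to 0.26 at PSR17023079.hg.1 (without SCR array 2). It ran from -0.25 to -0.074 at JUC17012828.hg.1 (smallest without knockdown array 2), from 0.40 to 0.82 at JUC17014551.hg.1 (without knockdown array 3) and from 0.41 to 1.16 at JUC14002591.hg.1 (without SCR array 2).

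Limma's diffSplice compares a probe set with the other probe sets of the gene, using a single variance per gene, and it gave other calls. It called 8 of the 346, or 7 of 125 junctions and 1 of 221 exons, against 0.817% of all probe sets. Among probe sets of other genes it called 1.62% of junctions and 0.271% of exons. The 8 were JUC20002493.hg.1 of SRSF6 (0.95, diffSplice adjusted p = 2.5e-07) and JUC17014551.hg.1 of SRSF2 (0.64, adjusted p = 6.0e-05), JUC02014815.hg.1 and JUC02014811.hg.1 of SRSF7 (-0.79 and -0.55), JUC01006321.hg.1 of SRSF11 (-0.78), JUC14002591.hg.1 and JUC14002585.hg.1 of SRSF5 (0.66 and 0.64), and PSR07018730.hg.1 of TRA2A (0.58). The 5 lower SRSF5 exon probe sets were not among them. The single variance pools probe sets measured on the same 6 arrays, which are not independent, so the diffSplice adjusted p may be too small. In the limma fit of the index, JUC20002493.hg.1 had an adjusted p of 0.51. The JUC01006321.hg.1 difference rested on knockdown array 2, and the groups of JUC14002591.hg.1 overlapped. diffSplice was not run with arrays left out.

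Genes around the SR protein loop were read from 4 lists, and none of their members was called at gene level. SR protein kinases and their partners phosphorylate the arginine and serine domains, remove the phosphates or carry the proteins into the nucleus. Of 13 listed, 12 had a cluster of their own, with a median difference of -0.021 (median of all genes -0.0045). CLK1 had 8.11, 8.34 and 8.03 in the knockdown, against 8.42, 8.50 and 8.47 in SCR. CLK4 had 7.61, 7.73 and 7.50 in the knockdown, against 7.84, 7.89 and 7.96 in SCR. In both kinases all 3 knockdown arrays were below SCR, with differences of -0.30 (SE 0.078, limma adjusted p = 0.15) for CLK1 and -0.29 (SE 0.063, adjusted p = 0.11) for CLK4. Without knockdown array 2, CLK1 differed by -0.39 (adjusted p = 0.049). CLK3 too was below SCR in every knockdown array, with a difference of -0.055 (limma adjusted p = 0.39), while the CLK2 groups overlapped (-0.026). SRPK1 and PPP1CC lay above SCR in every knockdown array. In all, groups did not overlap in 5 of the 12, against 20.3% of all genes. SRPK1, a kinase of SR proteins in the cytoplasm, averaged 9.95 ± 0.045 in the knockdown and 9.84 ± 0.014 in SCR (SD, n = 3 each), a difference of 0.12 (SE 0.032, limma adjusted p = 0.16). PPP1CC, a catalytic subunit of protein phosphatase 1, differed by 0.10 (SE 0.035, limma adjusted p = 0.25). In the RefSeq table of GRCh38.p14, CLK1 and PPIL3 are neighbouring genes, and whether this bears on the CLK1 signal was not tested.

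Nonsense-mediated decay removes the poison exon transcripts. Of 15 decay factors listed, 12 were tested, with a median of -0.046. SMG5, which takes part in the decay step after UPF1 is phosphorylated, had 9.65, 9.78 and 9.56 in the knockdown, against 9.81, 9.92 and 9.90 in SCR. MAGOHB, a subunit of the exon junction complex, had 9.07, 9.25 and 9.15 in the knockdown, against 9.06, 9.06 and 8.96 in SCR. The SMG5 and MAGOHB groups did not overlap, with differences of -0.21 (SE 0.061, limma adjusted p = 0.19) and 0.13 (SE 0.054, adjusted p = 0.33). SMG9 and SMG6 too were below SCR in every knockdown array, with differences of -0.12 and -0.093 (limma adjusted p 0.23 and 0.25). These were 4 of the 12 tested, against 20.3% of all genes.

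Of 25 other SR and SR-related proteins, 23 were tested and their median difference was 0.011. RSRC2 differed by 0.12 (SE 0.054) and SRSF12 by 0.093 (SE 0.045), both with overlapping groups. Of 18 hnRNPs and other splicing regulators with decay-coupled exons of their own, 13 were tested, with a median of 0.0012. The Sm protein SNRPB differed by 0.097 (SE 0.037, limma adjusted p = 0.29), and HNRNPH3 by -0.086 (SE 0.046, adjusted p = 0.44). In SNRPB the 3 knockdown values were above the 3 SCR values. At an unadjusted p under 0.05 the 4 lists held 0, 4, 3 and 1 genes, for the other SR proteins, the kinases, the decay factors and the hnRNPs, of 23, 12, 12 and 13 tested, against 15.5% of all genes.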

How the data were processed

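Per the labels, the authors processed the arrays with Affymetrix Expression Console and RMA, and they deposited log2 values in a gene-level table and a probe set table. RMA equalizes the array distributions, so a shift common to most transcripts is removed, and it summarizes probes robustly. Some values were identical between arrays. SRSF4 was at 9.71721 in SCR arrays 1 and 2 and knockdown array 1, and SRSF7 at 10.295 in SCR arrays 1 and 3 and knockdown array 3. JUC20002493.hg.1 was at 6.783 in SCR arrays 2 and 3. A very small spread within a group may thus understate the variation between arrays. No tool version and no genome build were given in the sources used here. The 12 samples are 6 arrays summarized in both ways, since all 2995 shared rows held identical values in same-named arrays (at most 15 in others). For arrays, their number limits the precision. Separate transductions are not stated for the replicates. The p-values thus cover the spread among these arrays, which may be technical.

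Groups were taken from the sample titles. The members and lists were chosen with earlier results of these data known. Symbols came from the platform annotation, of which 306 were updated with RefSeq names. The brightest cluster with a single symbol stood for a gene, and member clusters with several symbols were kept. Rows with a mean of at least 5 entered limma's lmFit and eBayes (two-sided) with Benjamini-Hochberg adjustment at 0.05. A splicing index was computed where a gene retained 3 or more exon probe sets. Both steps were tested on simulated data with independent noise and added shifts larger than any difference of the 10 genes. That test therefore does not cover shifts of the size reported here. The alternatives were a replicate block, leaving out each array, other moderation, normalization, filters and gene levels, single-symbol rows and diffSplice. Named were all 10 members, the extremes of each in the index, the 12 smallest index p (at most 3 a member), the 2 largest differences in each list and PPIL3. SRPK1, PPP1CC, CLK2, CLK3, SMG6, SMG9 and other probe sets, among them JUC06002381.hg.1, were chosen after their values were seen. Fits used limma 3.58.1 in R 4.3.3 with the package data.table (version 1.17.8), and plots used matplotlib 3.10.9 in Python 3.11.15.

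The labels give both groups the same replicate numbers. After group means were removed, arrays with the same number correlated at 0.34, 0.16 and 0.14 over genes and at 0.25, 0.14 and 0.019 over probe sets. A bound of 0.1 was passed by every same-number pair over genes but not over probe sets. Over genes, knockdown array 2 correlated more with SCR array 3, at 0.21, than with SCR array 2. These values do not settle whether the arrays were paired, so the replicate block was kept as an alternative.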

Additional observations from a re-analysis of the deposited data

How the results depend on the processing

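With the replicate block, 0 of the 10 genes and 0 of the 346 probe sets were called at gene level, probe set level or in the splicing index, the number of member probe sets at an unadjusted p under 0.05 was 34 against 36, and the SRSF5 number was 13 against 14. The block changed no call of a member or listed gene. Over all genes it gave 32 calls against 137, while single arrays left out gave 1 to 68, quantile normalization 226 and exon means as gene level 218. Over all probe sets it gave 0 calls against 27, as did each single array left out and no filter, while trend and robust moderation gave 623 and a mean of at least 6 gave 144. These counts over all rows were also added after seeing the data. With single arrays left out, the member number ran from 20 (without SCR array 3 or knockdown array 3) to 57 (without knockdown array 1), while the share of all probe sets ran from 5.02% to 10.4%. The SRSF5 number ran from 6 to 19, and was 7 with the exon median in the index and 8 with diffSplice. The SRSF5 probe sets whose groups did not overlap numbered 7 with the exon median (12.8% of all probe sets), against 20 (13.4% of all). These SRSF5 counts, the counts for TRA2B and SRSF2 and the settings for the 5 SRSF5 exons were added after seeing the data.

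Calls of members in the index numbered 0 in every setting except diffSplice, which gave 8. The kinase list had 0 to 1 calls with single arrays left out, the 1 being CLK1 without knockdown array 2. The SRSF1 difference ran from -0.024 to 0.031 with single arrays left out, and the index difference of PSR06005777.hg.1 from -0.30 to 0.00085. That of JUC14002597.hg.1 was -0.015 with the exon median. The differences of the other 9 genes and of the 5 SRSF5 exons kept their sign in every setting run, but not their size. With single arrays left out, the gene difference ran from -0.088 to -0.010 in SRSF5 (smallest without knockdown array 2), -0.10 to -0.028 in SRSF6 (without knockdown array 1), -0.15 to -0.076 in SRSF2 (without knockdown array 3) and 0.019 to 0.098 in TRA2A (without SCR array 1). Without knockdown array 2 it was 0.0068 in SRSF7, 0.0082 in SRSF11, 0.012 in SRSF4 and 0.016 in SRSF3. The 18 dim probe sets, with a mean under 5, were not tested, and 3 arrays a group limit what the rest can show.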
